A study of Mus musculus with 6 samples.

Results

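The miR-29 family was described in small RNA libraries of hippocampal neural stem cells, the dividing precursors of neurons and glia, from male C57BL/6J mice at postnatal day 3. Its members were taken by name, as all rows beginning miR-29a, miR-29b or miR-29c followed by an arm or hairpin label, which gave 7 of the 1522 rows of the table. In the exposed group (GDE, titled IUGR) the pregnant dams had received dexamethasone, a synthetic glucocorticoid, at 1 mg/kg by daily intraperitoneal injection between embryonic days E14.5 and E18.5. In the Control group (titled Normal) saline had been injected on the same days. Each group had 3 libraries from independent litters per the design text, and the labels state dissociation with a kit but no sorting of the cells. Levels are taken as RPM, the tags of a miRNA scaled to the depth of its library. On that reading each library rested on 11751322 to 12384958 tags, of which 2927136 to 3343808 were in the table.

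A miRNA is cut from a hairpin precursor that can release a mature strand from each arm, named 5p and 3p. In the miR-29 family the 3p strands are the main acting ones, and they share 1 seed, the stretch near the 5′ end by which a miRNA pairs with the 3′ untranslated region of its targets. The family is known for rising as neurons and astrocytes mature, for restraining DNA methyltransferases and TET enzymes, for limiting collagen and other matrix genes, and, in mouse neurons, for holding down pro-apoptotic genes of the BH3-only group. Whether prenatal dexamethasone shifts it in neonatal stem cells is the question the comparison of groups addresses.

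The sequences, from RefSeq on GRCm38.p6 and matched for all 7 members, are given because the members are told apart by very few bases. In the 3p strands the capitals mark the seed, bases 2 to 8.
mmu-miR-29a-3p: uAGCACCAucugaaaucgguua
mmu-miR-29b-3p: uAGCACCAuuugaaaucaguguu
mmu-miR-29c-3p: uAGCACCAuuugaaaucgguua
Positions are counted from 1 at the 5′ end. miR-29c-3p differs from miR-29a-3p by 1 substitution, C10U. miR-29b-3p carries 4 substitutions against miR-29a-3p over the shared length, C10U, G18A, U21G and A22U, and it is 23 bases long where the other two have 22. Its last 6 bases, AGUGUU, are the element known from work in human cells to take miR-29b into the nucleus, and neither miR-29a-3p nor miR-29c-3p ends in it. No other of the 960 rows with a RefSeq sequence carries this seed. How reads that fit more than 1 member were assigned is not given in the sources used here, so with 1 base between them the split of tags over miR-29a-3p and miR-29c-3p is uncertain. Against miR-29c-3p, miR-29b-3p has 3 substitutions, G18A, U21G and A22U, so a read that ends before base 18 fits both. For such reads the split over miR-29b-3p and miR-29c-3p is uncertain too.

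The 5p strands share no seed with the 3p strands or with each other, and they identify the hairpin of origin. Capitals again mark bases 2 to 8.
mmu-miR-29a-5p: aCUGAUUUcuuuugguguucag
mmu-miR-29b-1-5p: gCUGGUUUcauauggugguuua
mmu-miR-29b-2-5p: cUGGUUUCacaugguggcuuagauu
mmu-miR-29c-5p: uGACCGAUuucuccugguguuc
On GRCm38 the hairpins lie in pairs on separate chromosomes. Mir29a (chr6:31062660-31062747) and Mir29b-1 (chr6:31063023-31063093) are on the minus strand with 275 bases between them, and in GENCODE M21 the first 2 bases of Mir29b-1 overlap the exon of the long noncoding RNA Gm27019. Mir29b-2 (chr1:195037040-195037120) and Mir29c (chr1:195037547-195037634) are on the plus strand with 426 bases between them. Both lie in an exon of A330023F24Rik, a noncoding host transcript, and on the other strand from the terminal exon of Cd46. The 2 hairpins of miR-29b are printed with both mature strands in capitals, because they release the same 3p strand and only the 5p strand tells them apart.
Mir29b-1: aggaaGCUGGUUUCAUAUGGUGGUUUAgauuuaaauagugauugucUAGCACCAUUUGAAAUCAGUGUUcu
Mir29b-2: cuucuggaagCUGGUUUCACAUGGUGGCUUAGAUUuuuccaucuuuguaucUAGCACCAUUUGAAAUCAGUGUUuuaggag

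The match to the seed, TGGTGCT on the sense strand of a target, is the stretch that a target offers for pairing. It was looked for in the longest annotated 3′ untranslated region of each protein-coding gene of GENCODE M21 (GRCm38), and 13.1% of 21004 genes held it. Of 21 genes with reported roles as miR-29 targets, 19 held it, but such genes were partly found through this match, so the count is a description of the list. Dnmt3a, a de novo DNA methyltransferase, had 5 matches, and the demethylating enzymes Tet1, Tet2 and Tet3 had 7, 5 and 8. Their 3′ untranslated regions are long, at 6696, 7962, 3058 and 5669 bases, where the median over all genes was 961. Dnmt3a, Col3a1 (a fibrillar collagen) and Hrk (a BH3-only activator of neuronal apoptosis) stand for 3 of the roles in the list. For each of them 1 site is printed with its match in capitals, followed by an A.
Dnmt3a, chr12:3911391-3911412, plus strand: ccaggggaggtagcTGGTGCTa
Col3a1, chr1:45348968-45348989, plus strand: tcaaaatgtctcaaTGGTGCTa
Hrk, chr5:118185088-118185109, plus strand: acttcacagtttctTGGTGCTa
Target mRNAs were not measured in these libraries.

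The family was present in all 6 libraries at a steady order of levels. miR-29a-3p was the highest, at a mean of 700.6 RPM over all libraries and rank 61 in the table. miR-29c-3p followed at 383.1 RPM, rank 91, and miR-29b-3p at 152.3 RPM, rank 145. This order held in 6 of 6 libraries, and in means miR-29a-3p stood 1.83-fold above miR-29c-3p and 4.60-fold above miR-29b-3p. Such ratios between miRNAs also carry the ligation preferences of library preparation. The 3 strands summed to 1228 ± 294 RPM in GDE and 1244 ± 293 RPM in Control (mean ± SD, n = 3 each), 892.5 to 1442 RPM in GDE libraries against 930.6 to 1511 RPM in Control libraries. The summed level of the acting strands thus overlapped between the groups, and its log2 ratio of means, -0.02, ran from -0.19 to 0.17 when 1 library was left out.

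miR-29b-3p was the member of the 3p strands whose groups did not overlap. Its level was 177.8, 213.5 and 156.5 RPM in the GDE libraries, against 143.7, 92.7 and 129.3 RPM in the Control libraries. Every GDE library lay above every Control library, with the nearest values at 156.5 and 143.7 RPM. The means were 182.6 ± 28.8 RPM in GDE and 121.9 ± 26.3 RPM in Control (SD, n = 3 each), a ratio of 1.50. On the log2(RPM + 1) scale the fold of GDE over Control was 0.59 (SE 0.23, 95% interval 0.05 to 1.13). It did not pass the threshold of 0.05 over the 649 tested miRNAs (limma, Benjamini-Hochberg adjusted p = 0.561, unadjusted p = 0.0363), and its adjusted p ran from 0.383 to 0.822 over the alternatives. The exact two-sided permutation p was 0.1, the smallest that 3 against 3 libraries allow. Counting was no limit here, with 1898 to 2522 tags in GDE libraries and 1148 to 1729 in Control libraries.

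Some, but not all, markers of blood, immune, endothelial and mural cells were also higher in every GDE library than in every Control library. The microglia and leukocyte list of 7 miRNAs summed to 2387 to 2861 RPM in GDE libraries and 1699 to 2408 RPM in Control libraries, and the erythroid list of 3 to 73.8 to 93.5 RPM in GDE libraries and 34.98 to 69.0 RPM in Control libraries. Only the erythroid sums did not overlap. Of the 7 microglia and leukocyte markers, 3 had groups that did not overlap, all higher in GDE. The same held for 2 of the 6 endothelial and mural markers, beside 4.62% of all tested miRNAs. The tested erythroid markers miR-451a and miR-486a-5p had log2 folds of 1.00 and 0.05. The part of these cells in the miR-29b-3p values was not tested. In such bulk libraries fewer cells of a type and less RNA per cell cannot be told apart.

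miR-29a-3p, the most abundant member, overlapped widely. It was at 789.5, 761.4 and 450.1 RPM in GDE libraries, against 739.8, 580.7 and 882.0 RPM in Control libraries. GDE replicate 3 was the lowest of all 6 and Control replicate 3 the highest. The group means were 667.0 ± 188.4 and 734.2 ± 150.7 RPM for GDE and Control (SD, n = 3 each), and the log2 fold of -0.16 (SE 0.25, 95% interval -0.75 to 0.42) was smaller than its error (limma, adjusted p = 0.901). Without GDE replicate 3 it was 0.10.

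miR-29c-3p, the near twin of miR-29a-3p, was at 381.0, 467.5 and 286.0 RPM in GDE libraries, against 407.4, 257.2 and 499.9 RPM in Control libraries. All GDE values lay within the range of the Control values, and the libraries averaged 378.2 ± 90.8 RPM for GDE and 388.1 ± 122.5 RPM for Control (SD, n = 3 each). The log2 fold was -0.01 (SE 0.28, 95% interval -0.67 to 0.64; limma, adjusted p = 0.995), and it turned positive under each other scaling, at 0.05 to 0.09. For both miR-29a-3p and miR-29c-3p the intervals still hold changes of the size seen for miR-29b-3p, in either direction for miR-29c-3p and downward for miR-29a-3p.

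**Figure D1:**
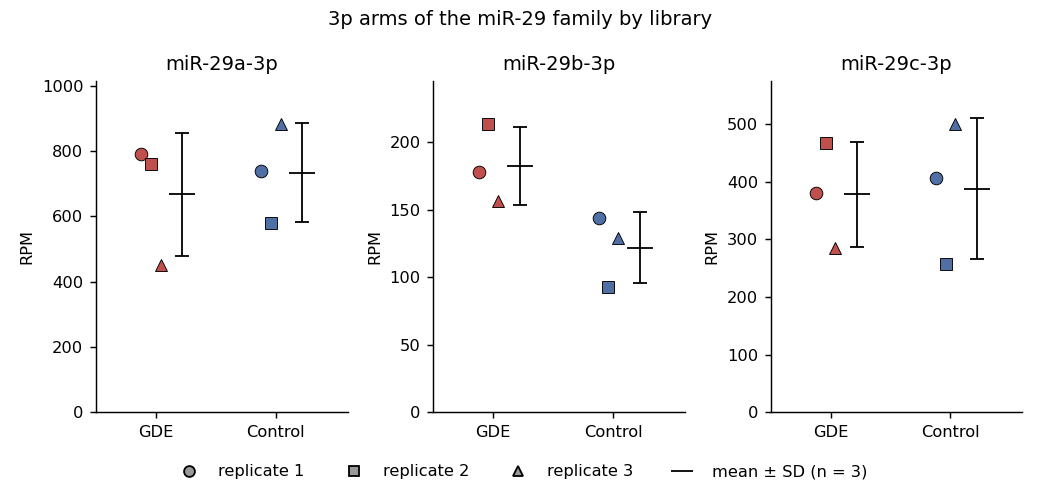
RPM of the 3 acting strands in each library, with GDE left of Control in every panel, symbols for the replicate number, and the bar for the mean with its SD (n = 3). For miR-29b-3p the GDE libraries (156.5 to 213.5 RPM) all lie above the Control libraries (92.7 to 143.7 RPM), while for miR-29a-3p and miR-29c-3p the groups overlap.

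Of the 7 members, 5 reached at least 1 RPM in 3 or more libraries and were tested, and 0 of these 5 passed the threshold, beside 0.308% (2 of 649) of all tested miRNAs. edgeR, DESeq2 and limma-voom on the recovered tags likewise called 0 members, beside 0.308%, 0.77% and 0.308% of all tested miRNAs. At an unadjusted p under 0.05 in limma there were 2 of the 5, miR-29b-3p and miR-29b-1-5p, where 8.63% of all tested miRNAs stood. Under the same limit limma-voom also gave both members (7.86% of all), while edgeR (8.63% of all) and DESeq2 (8.78% of all) gave 1, miR-29b-3p. Neither member was under it with a replicate block, without GDE replicate 2 or without Control replicate 2. Over the alternatives miR-29b-3p was under it in 14 of 18 and miR-29b-1-5p in 6 of 17. The groups did not overlap for the same 2 members, against 14.6% of all tested miRNAs. In the GDE-higher direction this was 1 member against 4.62%, and in the GDE-lower direction 1 member against 10%. Both are strands of the Mir29b-1 hairpin, but they share a source only in part, since miR-29b-3p is also released by Mir29b-2. The median log2 fold of the 5 was -0.01, beside -0.07 over all 649.

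The 5p strands, the by-products of the hairpins, made up 3.48% ± 0.456 of the family's tags in GDE and 3.45% ± 0.817 in Control (SD, n = 3 each). miR-29c-5p was the most abundant, at 44.0, 38.9 and 30.2 RPM in GDE libraries, against 31.1, 34.4 and 38.5 RPM in Control libraries. The groups overlapped at means of 37.7 ± 6.99 and 34.6 ± 3.70 RPM for GDE and Control (SD, n = 3 each; log2 fold 0.11, SE 0.23; limma, adjusted p = 0.931). miR-29c-5p made up 84.7% to 88.6% of all 5p tags of the family in GDE libraries and 78.2% to 83.4% in Control libraries, shares that did not overlap.

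miR-29b-1-5p, the partner strand of miR-29b-3p in the hairpin on chromosome 6, stood on the other side. It was at 6.18, 3.89 and 3.30 RPM in GDE libraries, against 7.31, 7.11 and 6.38 RPM in Control libraries. All GDE libraries lay below all Control libraries, but GDE replicate 1, at 6.18 RPM, was close to the lowest of them at 6.38 RPM. The means were 4.46 ± 1.52 RPM in GDE and 6.93 ± 0.489 RPM in Control (SD, n = 3 each), with a log2 fold of -0.57 (SE 0.24, 95% interval -1.12 to -0.02). The threshold was not passed (limma, adjusted p = 0.561, unadjusted p = 0.0426; exact permutation p = 0.1). These levels rest on 74, 46 and 40 tags in GDE libraries and 88, 88 and 75 tags in Control libraries, so counting error is part of their spread. A pseudocount of 10 RPM, above the level itself, reduced the log2 fold to -0.23.

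The remaining 5p strands were too rare to test. miR-29a-5p had 9, 6 and 13 tags in GDE libraries and 11, 4 and 12 tags in Control libraries, or 0.323 to 1.07 RPM over all libraries. miR-29b-2-5p had 12, 7 and 6 tags in GDE libraries and 5, 11 and 3 tags in Control libraries, 0.255 to 1.00 RPM. In sum miR-29b-2-5p had 25 tags in GDE (exact Poisson 95% interval 16.2 to 36.9) and 19 in Control (11.4 to 29.7), so a difference was not detectable at this depth. These intervals reflect the counting of tags alone. Within the 5p tags of miR-29b, the Mir29b-1 hairpin gave 86.0%, 86.8% and 87.0% in GDE libraries, against 94.6%, 88.9% and 96.2% in Control libraries. The GDE shares were all lower, but the exact binomial 95% intervals overlapped between the groups, with 73.7% to 95.1% for GDE replicate 3 and 89.2% to 99.2% for Control replicate 3.

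**Figure D2:**
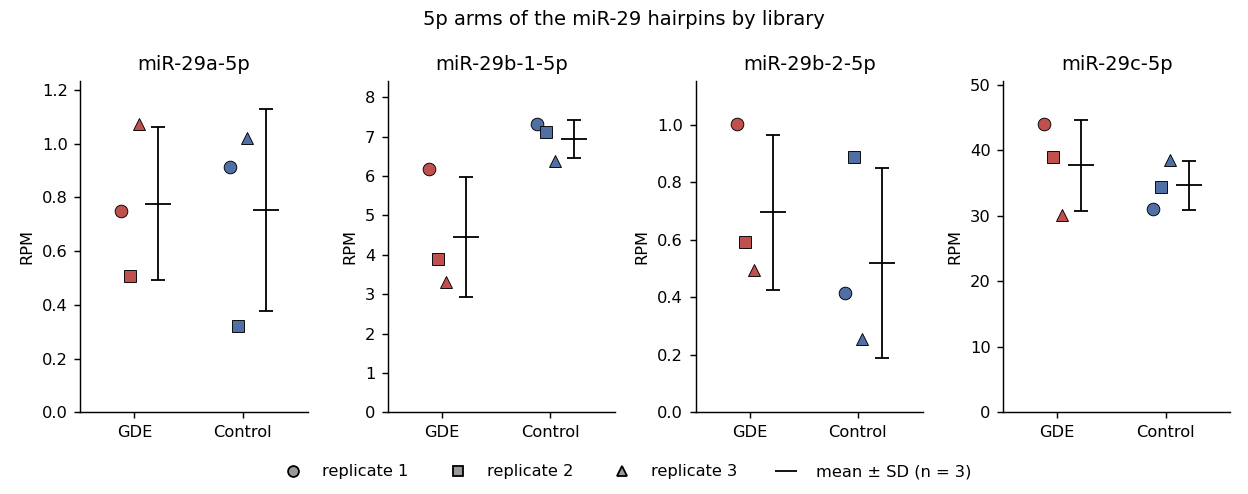
RPM of the 4 partner strands in each library, GDE left of Control, with symbols for the replicate number and bars for mean and SD (n = 3). Only miR-29b-1-5p has groups that do not overlap, with GDE at 3.30 to 6.18 RPM and Control at 6.38 to 7.31 RPM, and miR-29a-5p and miR-29b-2-5p stay near or under 1 RPM.

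The hairpins differed widely in how unevenly they kept their strands. Over all tags, the 3p strand outnumbered the 5p strand 916-fold for miR-29a, 24.1-fold for miR-29b (both hairpins together) and 10.6-fold for miR-29c. Arm usage was then compared between the groups for 146 hairpins with both strands tested, Mir29b-1 and Mir29c among them. For Mir29b-1 the ratio of miR-29b-3p over miR-29b-1-5p was 28.8, 54.8 and 47.5 in GDE libraries, against 19.6, 13.0 and 20.3 in Control libraries. All GDE libraries lay above all Control libraries, as they did when the 5p strands of both miR-29b hairpins were counted (24.8 to 47.6 in GDE against 11.6 to 19.5 in Control).

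On the log2 scale, with 1 RPM added to each strand, the Mir29b-1 ratio was 5.10 ± 0.42 in GDE and 3.93 ± 0.35 in Control (SD, n = 3 each). The difference of 1.16 (SE 0.29) had the lowest unadjusted p of the 146 hairpins in limma, 0.004, and did not pass after adjustment (limma, adjusted p = 0.475). It stayed at 0.96 to 1.39 when any 1 library was left out, with adjusted p from 0.127 to 0.838 over the alternatives. In all, 0% of the hairpins passed, while 8.9% had an unadjusted p under 0.05 and 11.6% had groups that did not overlap, 5.48% with the higher and 6.16% with the lower ratio in GDE. Since miR-29b-3p is also released by Mir29b-2, the ratio is not that of 1 hairpin alone. For Mir29c the ratio was 8.66, 12.01 and 9.48 in GDE libraries and 13.1, 7.48 and 13.0 in Control libraries, with a log2 difference of -0.12 (SE 0.28; limma, adjusted p = 0.939).

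**Figure D3:**
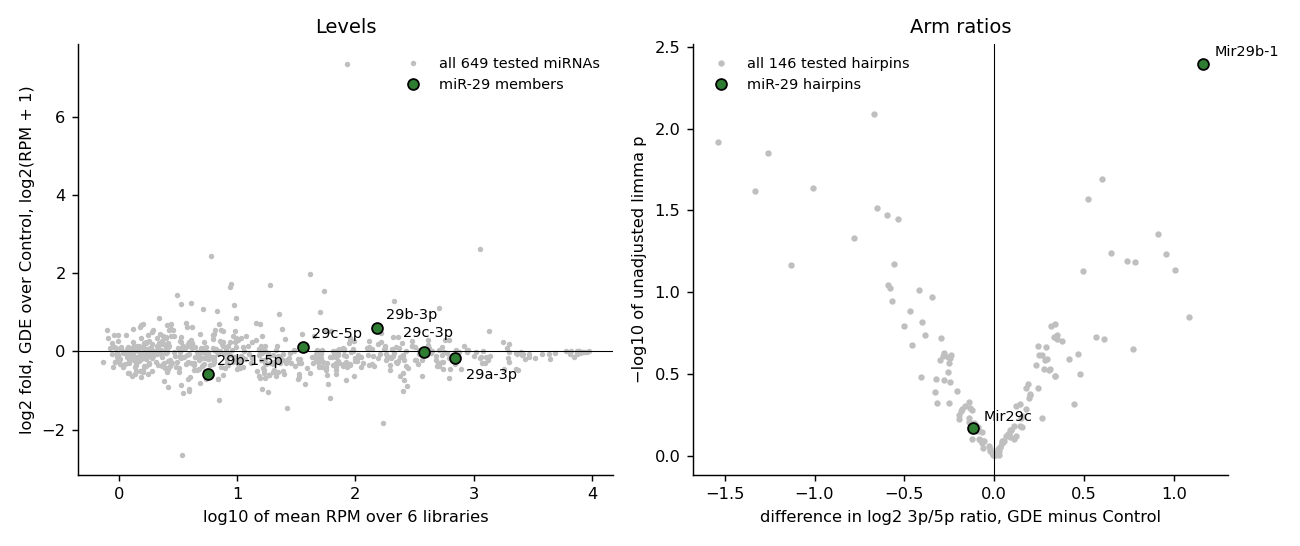
Left, log2 fold of GDE over Control against the log10 of mean RPM for the 649 tested miRNAs (grey), with the 5 tested members in green. Right, the difference in log2 3p/5p ratio against the −log10 of the unadjusted limma p for 146 hairpins (grey), with the 2 tested miR-29 hairpins in green, where Mir29b-1 at 1.16 has the highest point and Mir29c at -0.12 lies among the rest.

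As the 3p strands share a seed, a target can pair with any of them, and their proportions were compared next. miR-29b-3p made up 13.2%, 14.8% and 17.5% of the family's 3p tags in GDE libraries, against 11.1%, 9.96% and 8.56% in Control libraries. miR-29a-3p held 50.4% to 58.6% in GDE libraries and 57.3% to 62.4% in Control libraries, and miR-29c-3p 28.3% to 32.4% in GDE libraries and 27.6% to 33.1% in Control libraries. Only the miR-29b-3p share had groups that did not overlap.

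Unequal change was tested on 4 ratios between members. miR-29b-3p over miR-29a-3p was 0.225, 0.280 and 0.348 in GDE libraries, against 0.194, 0.160 and 0.147 in Control libraries, a log2 difference of 0.76 (SE 0.22). miR-29b-3p over miR-29c-3p was 0.467, 0.457 and 0.547 in GDE libraries, against 0.353, 0.360 and 0.259 in Control libraries, a log2 difference of 0.61 (SE 0.18). In both ratios every GDE library lay above every Control library. miR-29c-3p over miR-29a-3p overlapped, at 0.483, 0.614 and 0.635 in GDE libraries and 0.551, 0.443 and 0.567 in Control libraries (log2 difference 0.15, SE 0.17, exact permutation p = 0.5). These values compare members within a library, so the scaling of the libraries does not enter them.

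The fourth ratio set the 5p strands of the chromosome 1 hairpins over those of the chromosome 6 hairpins. Over all libraries miR-29c-5p averaged 36.2 RPM and miR-29b-2-5p 0.61 RPM, against 5.7 RPM for miR-29b-1-5p and 0.76 RPM for miR-29a-5p. The ratio is thus mainly miR-29c-5p over miR-29b-1-5p, and it does not measure the output of the 2 loci. It was 6.49, 8.98 and 7.02 in GDE libraries, against 3.83, 4.75 and 5.23 in Control libraries, a log2 difference of 0.70 (SE 0.19). The GDE libraries again lay above the Control libraries, and a pseudocount of 10 RPM reduced the difference to 0.31. The exact two-sided permutation p was 0.1 for this ratio and for both ratios with miR-29b-3p in the numerator, the smallest value the design allows, and 0.133 when adjusted over the 4 ratios. So none of them passed, and none could have.

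**Figure D4:**
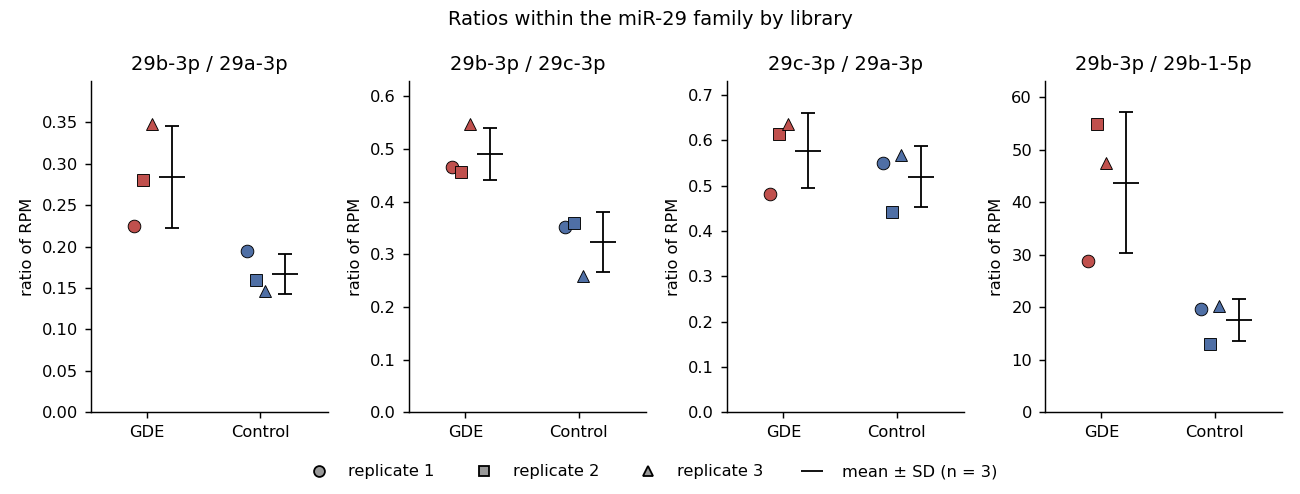
Ratios of RPM within each library, GDE left of Control, with symbols for the replicate number and bars for mean and SD (n = 3). The ratios with miR-29b-3p in the numerator are higher in all GDE libraries than in all Control libraries (28.8 to 54.8 against 13.0 to 20.3 over its 5p strand), while miR-29c-3p over miR-29a-3p overlaps.

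Correlations between the 3p strands over the 6 libraries are given with and without the difference between the groups. miR-29a-3p and miR-29c-3p, from different chromosomes, had Pearson's r of 0.85 (permutation p = 0.0306) and Spearman's rho of 0.77 (permutation p = 0.103). These strands differ by 1 substitution, and how reads that fit both were assigned is not given. The part of such reads in the correlation was not tested. Over the 3 pairs of 3p strands the adjusted permutation p was 0.0917 for r and 0.308 for rho. Without GDE replicate 3 and Control replicate 2, the libraries farthest from the median of miR-29a-3p, r was 0.59. Leaving out the farthest libraries also narrows the range, so the lower r cannot tell whether the relation rests on them. miR-29b-3p had r of 0.23 and rho of 0.14 with miR-29a-3p (adjusted permutation p = 0.643 and 0.803), and r was -0.53 without the same libraries. With miR-29c-3p it had r of 0.54 and rho of 0.26 (adjusted permutation p = 0.419 and 0.803), and r was -0.60 without GDE replicate 2 and Control replicate 2, the farthest for miR-29b-3p. Taken over deviations from the group means, r was 0.88 for miR-29a-3p with miR-29c-3p, 0.72 for miR-29a-3p with miR-29b-3p and 0.90 for miR-29b-3p with miR-29c-3p. The last 3 values rest on 3 libraries a group and are a description with no test.

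Among 309 other named miRNAs of at least 10 RPM, those most like the summed 3p strands over the 6 libraries were let-7c-5p (r = 0.96), miR-99a-5p (0.95), let-7i-3p (0.94), miR-24-2-5p (0.92) and miR-3074-2-3p (0.92). Over the libraries let-7c-5p spanned 8732 to 9270 RPM and let-7i-3p 123.9 to 198.5 RPM. The lowest r belonged to miR-466p-5p (-0.84), miR-194-5p (-0.83), miR-744-3p (-0.71), miR-3093-3p (-0.68) and miR-450b-3p (-0.66). These r are a ranking over 6 points that share library depth, and 8 candidates exceeded 0.9.

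Other miRNAs of the same processes gave the setting, and in none of these lists did a miRNA pass the threshold in either direction (limma, 0 called). All 15 miRNAs that mark brain maturation were tested, and 10 folds were above 0 and 5 below, with a median log2 fold of 0.08, which was 0.13 to 0.18 under the other scalings. Its 4 most abundant, let-7c-5p, let-7b-5p, miR-22-3p and miR-129-5p, had log2 folds of -0.02, -0.02, 0.01 and 0.03. Means of let-7c-5p, let-7b-5p and miR-22-3p lay close together, at 8943, 8281 and 7409 RPM in GDE and 9041, 8407 and 7357 RPM in Control. The SEs of their folds were 0.05, 0.05 and 0.06. Whether levels this high, also those of miR-9-5p and miR-26a-5p, are compressed was not tested. Of 11 miRNAs in the clusters of early progenitors, known for promoting proliferation, 10 were tested, 2 folds were above 0 and 8 below, and the median was -0.24, which was -0.18 to -0.14 under the other scalings. Here miR-93-5p, miR-92a-3p, miR-20a-5p and miR-19b-3p had log2 folds of -0.18, 0.19, -0.02 and -0.37. Over all 649 tested miRNAs 252 folds were above 0 and 397 below.

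miRNAs outside the family that are reported to target DNA methylation enzymes had 10 tested members, 5 folds on each side of 0 and a median of -0.03, which was 0.03 to 0.08 under the other scalings. The log2 folds of miR-26a-5p, miR-22-3p, miR-26b-5p and miR-143-3p were 0.01, 0.01, 0.02 and 0.05. The astroglia list of 7 had a median of -0.07, and -0.01 to 0.03 under the other scalings, with -0.18 for miR-21a-5p, -0.07 for miR-23a-3p, -0.07 for miR-27a-3p and the miR-22-3p value above.

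The markers of cell types were read because miR-29 is not limited to neural cells. The neural markers miR-9-5p, miR-9-3p, miR-124-3p and miR-125b-5p were present throughout, summing to 17916 to 18874 RPM in GDE libraries and 17963 to 19501 RPM in Control libraries. In the microglia and leukocyte list 6 of 7 log2 folds were above 0, with a median of 1.23. That median is the fold of a low miRNA, miR-142a-5p, whose groups overlapped. It averaged 5.54 ± 0.59 RPM over GDE libraries and 2.57 ± 2.63 RPM over Control libraries (SD, n = 3 each). For 3 of the 7 all GDE libraries lay above all Control libraries, as for 4.62% of all tested miRNAs. Among its 4 most abundant, miR-150-5p, known from mature lymphocytes, averaged 298.4 ± 62.5 RPM over GDE libraries and 126.8 ± 52.4 RPM over Control libraries (SD, n = 3 each), while miR-146a-5p, miR-342-3p and miR-155-5p had log2 folds of 0.23, 0.05 and -0.25.

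In the erythroid list the tested members miR-451a, of red blood cells, and miR-486a-5p had log2 folds of 1.00 and 0.05. In the endothelial and mural list 6 of 6 folds were above 0, with a median of 0.33 and sums of 383.3 to 605.7 RPM in GDE libraries and 354.0 to 434.0 RPM in Control libraries. There the most abundant, miR-126a-3p, miR-143-3p, miR-199a-5p and miR-126a-5p, had log2 folds of 0.27, 0.05, 0.44 and 0.39. Of all 6 markers in this list, 2 were higher in every GDE library than in every Control library, miR-126a-5p among them. No marker was at 0 in all libraries, and 0 of the 15 tested markers of these 3 lists passed the threshold in limma, with 5 at an unadjusted p under 0.05, where 8.63% of all tested miRNAs stood.

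The log2 folds of the members were computed again under other choices of scaling, pseudocount, filter, tool and block, and without each library, except that miR-29b-1-5p could not be fitted with a filter of 10 RPM. miR-29b-3p stayed between 0.41 and 0.72 and miR-29b-1-5p between -0.79 and -0.23, each with 1 sign in the alternatives it was fitted in (18 and 17), while miR-29a-3p, miR-29c-3p and miR-29c-5p crossed 0.

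**Figure D5:**
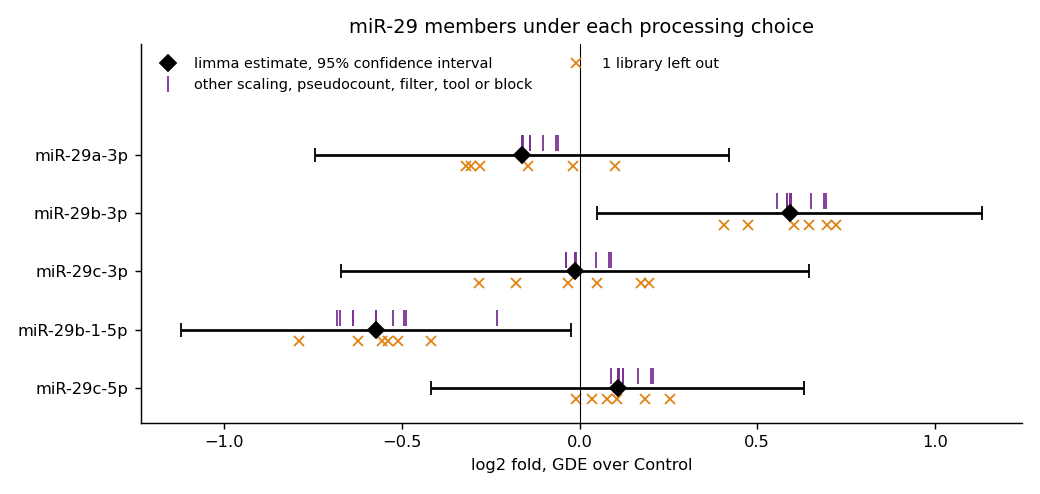
Log2 fold of GDE over Control for the 5 tested members. Diamonds with bars are the limma estimate and its 95% interval, purple ticks the other processing choices, and orange crosses the fits without 1 library, and miR-29b-3p (0.41 to 0.72) and miR-29b-1-5p (-0.79 to -0.23) keep 1 sign.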

How the data were processed

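Small RNA was sequenced from 6 libraries, 3 GDE and 3 Control, grouped by their titles. Per the labels' protocols the cells were lysed in TRIzol and an MGIEasy kit for small RNA was used. Bowtie2 and mm10 stand in the submitters' processing notes without version or role. The sources used here do not give trimming, multi-mapping rules or any use of molecular identifiers. The deposited table holds 1 column per library, named as expression per the file headers, and its unit, RPM, was inferred from the values: they are whole multiples of 0.0807 to 0.0851 RPM, the worth of 1 tag. Within a tolerance of 0.1 tags 100% of nonzero values were whole.

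Computed here were limma 3.58.1 (R 4.3.3) with a trend on log2(RPM + 1), for miRNAs of at least 1 RPM in 3 libraries, with two-sided tests and Benjamini-Hochberg adjustment over all 649. The added 1 RPM understates the fold of low miRNAs. Arm ratios were tested likewise over hairpins with both strands past that filter, and member ratios by exact permutation (Python 3.11.15). edgeR 4.0.16, DESeq2 1.42.0 and limma-voom were run on the recovered tags, on which edgeR called 2 miRNAs, with library depth as their scaling. The fits were tested on simulated data with 2-fold and 4-fold changes in levels and 4-fold changes in arm ratios. Changes as small as that of miR-29b-3p were not simulated. Named miRNAs were all members, the 5 most and 5 least alike over the libraries, and the 4 most abundant tested miRNAs of each other list. Members and lists were chosen with earlier results of these data known, and the target genes and their sites after the values were seen. Replicates of a group differed beyond sampling noise (chi-square per degree of freedom 39.1 to 139.4). Sequences are from RefSeq and GENCODE M21, both GRCm38, the assembly called mm10.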

Additional observations from a re-analysis of the deposited data

How the results depend on the processing

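No alternative brought a miR-29 member or hairpin past the threshold. The number of miRNAs called over the table, 2, became 1 with at least 10 RPM in 3 libraries and 5 in DESeq2, and was 2 to 3 without 1 library. miR-29c-3p, at -0.01, took the other sign under TMM (0.089), median-of-ratios (0.083) and table-sum (0.046) scaling, and ran from -0.28 to 0.20 without 1 library (0.17 without GDE replicate 3, 0.048 without Control replicate 1). Without 1 library, miR-29a-3p ran from -0.32 to 0.10, miR-29c-5p from -0.0095 to 0.26, and the Mir29c arm ratio from -0.39 to 0.014 (0.012 without Control replicate 3). The other scalings raised the median log2 fold of all tested miRNAs by 0.05 to 0.08. Leaving out 1 library moved the log2 difference of miR-29b-3p over miR-29a-3p between 0.60 and 0.91 and that over miR-29c-3p between 0.45 and 0.69.

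Nothing given here says that same-numbered libraries share more than the number. Deviations of same-numbered libraries from their group means correlated at -0.03, -0.12 and -0.03, and those of differently numbered libraries at -0.07 to 0.15. With 3 libraries a group these values cannot exclude a shared batch. With a replicate block the log2 fold of miR-29b-3p was 0.59 (limma, adjusted p = 0.573), the table had 2 calls, and the exact sign-flip p of both miR-29b-3p ratios was 0.25, the smallest 3 pairs allow. Depth limits the 5p strands: miR-29b-1-5p rests on 40 to 88 tags per library, and miR-29a-5p and miR-29b-2-5p on 3 to 13; both stayed outside the test. The causes of these shifts were not tested.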
